A study of Mus musculus with 24 samples.

Results

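The genes described here encode the subunits of the oxidative phosphorylation system that are made from nuclear genes, together with cytochrome c. They were chosen by gene symbol alone, as the Nduf genes of the A, B, C, S and V series, the 4 Sdh subunits, the Uqcr genes, the Cox4 to Cox8 genes and the Atp5 genes, plus Cyc1 and Cycs. This gave 83 of the 18368 genes in the expression table, of which 35 belong to complex I, 4 to complex II, 9 to complex III, 18 to complex IV and 16 to complex V, with Cycs as the 1 cytochrome c gene. Ndufa4 and Ndufa4l2 were placed with complex IV, where NDUFA4 is now assigned. Ndufab1 was in the table but its symbol did not meet the rule. RNA sequencing was carried out on whole skin of 12 CD1 mice, an outbred stock, aged 7 weeks with hair cycles matched in the resting phase (telogen). Each mouse was wounded at a single site, abdomen, back or cheek, with 1 punch wound of 2 mm through the skin at the cheek or 2 at the abdomen or back. Wound tissue was taken at day 3, and the control was uninjured skin next to the wound of the same mouse, so that the control also came from a wounded, shaved and anaesthetised animal. There were 4 mice per site, each with 1 unwounded and 1 wound library, 24 libraries in all, and no mouse contributed to more than 1 site.

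Oxidative phosphorylation takes place in the inner mitochondrial membrane. Complexes I and II pass electrons from NADH and succinate to ubiquinone, complex III passes them to cytochrome c and complex IV to oxygen, and complex V, the ATP synthase, uses the resulting proton gradient to make ATP. Skeletal muscle holds far more mitochondria per cell than most cells of the skin, and mouse skin carries a thin sheet of skeletal muscle, the panniculus carnosus, beneath the dermis and fat. Complex IV also has subunits with a heart and skeletal muscle isoform and a ubiquitous isoform: COX6A2, COX7A1 and COX8B are the muscle forms, and COX6A1, COX7A2 and COX8A are their counterparts elsewhere.

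The amount of muscle RNA differed between libraries and was followed throughout. A muscle score was calculated for each library as the mean log2(FPKM + 0.5) of 18 contractile genes, such as the fast myosins and troponins, none of which is an oxidative phosphorylation subunit. FPKM counts fragments per kilobase of transcript and is scaled to the mapped reads, so it is a level corrected for gene length and library size. In unwounded abdomen the score was 8.62, 4.13, 6.17 and 8.86 in mice 1 to 4. Mice 2 and 3 therefore held far less contractile RNA than the others, mouse 2 by more than 4 log2 units below mice 1 and 4. In unwounded back the score lay between 8.36 and 9.04 and in unwounded cheek between 8.47 and 9.43. Day 3 wounds had scores of 5.60 to 7.22 at the abdomen, 6.38 to 6.91 at the back and 7.15 to 7.65 at the cheek, below the unwounded library of the same mouse in 10 of 12 mice and above it in abdomen mice 2 and 3. A separate list of slow and oxidative fibre genes went otherwise. Its mean log2(FPKM + 0.5) was 1.72, 1.66 and 3.00 in unwounded abdomen, back and cheek, and 3.17, 2.95 and 3.55 in their wounds. Mb, on that list, was lower in back wounds (52.70 to 156.79 FPKM) than in unwounded back (479.68 to 1320.68 FPKM). The muscle score therefore follows its 18 genes and not every kind of muscle RNA. No contractile gene was at 0 in any library, and Acta1, skeletal muscle actin, ranged from 180.65 to 9737.32 FPKM. Krt5, which marks basal keratinocytes of the skin, ranged from 1419 to 2961 FPKM. Ucp1, which defines brown fat, another tissue rich in mitochondria, did not exceed 0.26 FPKM and was listed at 0 in 10 libraries. Of the other genes on the brown fat list, Cidea was at 61.48 to 208.11 FPKM, Elovl3 at 81.92 to 346.23 FPKM and Dio2 at 0.42 to 6.32 FPKM. In bulk tissue, fewer cells of a type and less RNA per cell cannot be told apart. Read depth is not held by FPKM values and is unknown here, and with 4 mice per group the number of animals limits the precision.

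All 83 genes were expressed well above the limit for testing. No gene was at 0 in any library, and 79 of them exceeded 10 FPKM in all 24. The order of levels in the 12 unwounded libraries was headed by Cox7c, a small complex IV subunit, with a median of 748 FPKM, and by Atp5b, the catalytic beta subunit of ATP synthase, with a median of 646 FPKM. Their ranges, 316.67 to 982.23 and 431.31 to 950.51 FPKM, overlapped almost entirely. At the other end stood Cox4i2, an isoform of COX4 best known from lung, at 4.48 FPKM, Atp5s, a factor that couples the parts of ATP synthase, at 4.57 FPKM, and Cox6b2, a testis isoform, at 4.60 FPKM. These 3 levels did not differ beyond their spread, and they lay far below the other genes of the set in unwounded skin except in abdomen mouse 2, where Cox7a1 was at 4.39 FPKM. The gene medians ranged from 29.2 to 298 FPKM in complex I, from 60.02 to 149 FPKM in complex II and from 93.2 to 425 FPKM in complex III. Together the 83 genes took 2.68% of all FPKM in unwounded abdomen, 3.28% in back and 3.64% in cheek (means of 4 libraries), and 2.48%, 2.38% and 2.54% in the wounds of these sites.

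The 3 muscle isoforms were the members that varied most and their promoters are shown with those of the ubiquitous partners, as members of a pair that behaved differently. On GRCm38, Cox6a2 lies at chr7:128205435-128206366, Cox7a1 at chr7:30184171-30186030 and Cox8b at chr7:140898942-140900446. Their partners Cox6a1, Cox7a2 and Cox8a lie at chr5:115345652-115348958, chr9:79755241-79771422 and chr19:7215158-7217616. The sequences below run 5′ to 3′ from 250 bases before to 50 bases after the RefSeq transcription start on GRCm38.p6, so they span the promoter and the first transcribed bases. Cox7a1 is at chr7:30183921-30184220 on the plus strand and Cox8b at chr7:140900397-140900696 on the minus strand. Cox6a1 is at chr5:115348909-115349208, Cox7a2 at chr9:79759804-79760103 and Cox8a at chr19:7217567-7217866, all on the minus strand. Cox6a2 was not in the promoter table. Capitals mark matches to one of 5 motifs searched on both strands, namely NRF1 (the palindrome made of GCGCA and its reverse complement), ERR (TCAAGGTCA), MEF2 (CTA and TAG with 4 bases of any kind between them), CAGCTG (an E-box of the kind bound by myogenic factors) and ETS (CCGGAAGT).
Cox7a1: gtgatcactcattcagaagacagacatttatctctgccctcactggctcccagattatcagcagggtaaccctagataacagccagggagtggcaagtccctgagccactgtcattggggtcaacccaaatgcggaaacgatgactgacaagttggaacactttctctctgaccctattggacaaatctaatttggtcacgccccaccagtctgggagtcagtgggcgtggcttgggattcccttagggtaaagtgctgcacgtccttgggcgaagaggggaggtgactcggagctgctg
Cox8b: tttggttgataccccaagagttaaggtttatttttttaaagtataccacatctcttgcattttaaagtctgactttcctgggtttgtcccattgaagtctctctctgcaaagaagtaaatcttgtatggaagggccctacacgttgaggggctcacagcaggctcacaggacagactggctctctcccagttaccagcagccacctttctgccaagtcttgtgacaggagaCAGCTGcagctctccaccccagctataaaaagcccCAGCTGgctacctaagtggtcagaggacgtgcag
Cox6a1: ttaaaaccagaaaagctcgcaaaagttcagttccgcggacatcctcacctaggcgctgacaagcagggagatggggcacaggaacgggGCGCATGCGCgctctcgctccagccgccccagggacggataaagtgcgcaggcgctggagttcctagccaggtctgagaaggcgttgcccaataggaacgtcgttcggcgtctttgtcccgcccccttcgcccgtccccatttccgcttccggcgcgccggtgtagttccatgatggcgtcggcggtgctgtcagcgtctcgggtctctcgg
Cox7a2: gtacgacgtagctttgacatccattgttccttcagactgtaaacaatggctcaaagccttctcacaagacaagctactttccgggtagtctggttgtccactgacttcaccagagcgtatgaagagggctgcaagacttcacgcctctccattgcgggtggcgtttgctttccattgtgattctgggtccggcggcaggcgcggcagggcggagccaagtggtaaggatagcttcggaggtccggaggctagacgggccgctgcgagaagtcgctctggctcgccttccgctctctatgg
Cox8a: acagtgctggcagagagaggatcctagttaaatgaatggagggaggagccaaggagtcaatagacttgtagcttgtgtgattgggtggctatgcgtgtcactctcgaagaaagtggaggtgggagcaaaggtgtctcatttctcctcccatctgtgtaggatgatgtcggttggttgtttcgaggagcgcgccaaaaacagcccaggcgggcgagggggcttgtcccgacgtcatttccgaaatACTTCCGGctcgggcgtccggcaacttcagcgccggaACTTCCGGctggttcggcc
In the Cox8b window the E-box occurred at positions -19 and 17 from the start, with the first transcribed base as 1. Cox6a1 held an NRF1 match beginning at -162, Cox8a held ETS matches at -6 and 32, and Cox7a1 and Cox7a2 held none of these letters. RefSeq windows were found for 68 of the 83 genes. The NRF1 motif, bound by a known activator of respiratory genes, was present in 5 of the 68 (7.35%), against 1.07% of all 27025 genes with a window. Those 5 were Atp5g2, Atp5k, Cox6a1, Ndufa11 and Uqcrc1. The ERR motif was present in Atp5g3 and Sdhd (2.94% against 0.466%), and the ETS motif in 5 (7.35% against 4.31%). The muscle motifs were less frequent than in all genes, the E-box in 6 of 68 (8.82% against 18.3%) and the MEF2 motif in Cox5b alone (1.47% against 4.23%). None of the motifs overlapped another in the sequences shown. These shares describe letters in a window and were not tested.

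Among unwounded samples the muscle isoforms followed the contractile genes closely. Cox6a2 was at 231.79, 11.54, 43.44 and 224.25 FPKM in abdomen mice 1 to 4, at 417.40, 596.53, 390.53 and 417.62 FPKM in back and at 450.74, 618.88, 283.75 and 362.59 FPKM in cheek. The 2 abdomen libraries with low muscle scores were thus the lowest by far, and every abdomen library was below every back and cheek library. Cox7a1 was at 89.71, 4.39, 15.43 and 74.97 FPKM in abdomen, at 95.03, 146.86, 79.00 and 130.70 FPKM in back and at 160.15, 190.05, 92.68 and 104.16 FPKM in cheek. Abdomen mouse 1 overlapped the back libraries, and cheek and back overlapped each other. Cox8b was at 157.22, 13.45, 32.63 and 130.25 FPKM in abdomen, at 220.13, 353.44, 170.96 and 267.33 FPKM in back and at 308.27, 397.54, 174.22 and 182.31 FPKM in cheek. Again all 4 abdomen libraries lay lowest and mice 2 and 3 were far apart from mice 1 and 4. In a model with site and muscle score (limma on log2(FPKM + 0.5) over all genes, Benjamini-Hochberg adjustment, threshold 0.05), the log2 level rose per unit of muscle score by 0.92 for Cox6a2 (SE 0.04, limma adjusted p = 1.5e-08), by 0.90 for Cox7a1 (SE 0.04, limma adjusted p = 1.3e-08) and by 0.77 for Cox8b (SE 0.06, limma adjusted p = 1.3e-06). A slope of 1 would be a gene that rises in step with the mean of the contractile genes.

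The ubiquitous partners did not show this. Cox6a1 was at 530.40, 315.16, 431.20 and 253.83 FPKM in unwounded abdomen, at 433.45, 420.54, 428.57 and 248.27 FPKM in back and at 400.60, 369.52, 460.14 and 496.83 FPKM in cheek. The sites overlapped. The lowest libraries of abdomen and of back were each numbered mouse 4, which are different animals, although both had high muscle scores. Across the 12 libraries, which come from 3 sites and share the same scaling, Pearson's r between log2 level and muscle score was 0.975 for Cox6a2, 0.990 for Cox7a1 and 0.970 for Cox8b, and 0.104, 0.0943 and -0.345 for Cox6a1, Cox7a2 and Cox8a. Without the 2 libraries farthest from the median score the first 3 values were 0.601, 0.876 and 0.784. The muscle isoform made up 22.5% ± 20.0 (SD, n = 4) of the summed Cox6a FPKM at the abdomen, against 54.5% ± 7.32 at the back and 49.0% ± 11.03 at the cheek. The share for Cox7a1 was 22.9% ± 19.1, 46.3% ± 6.64 and 49.6% ± 8.35, and for Cox8b 16.6% ± 14.0, 40.5% ± 9.28 and 40.2% ± 12.1, in the same order.

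**Figure D1:**
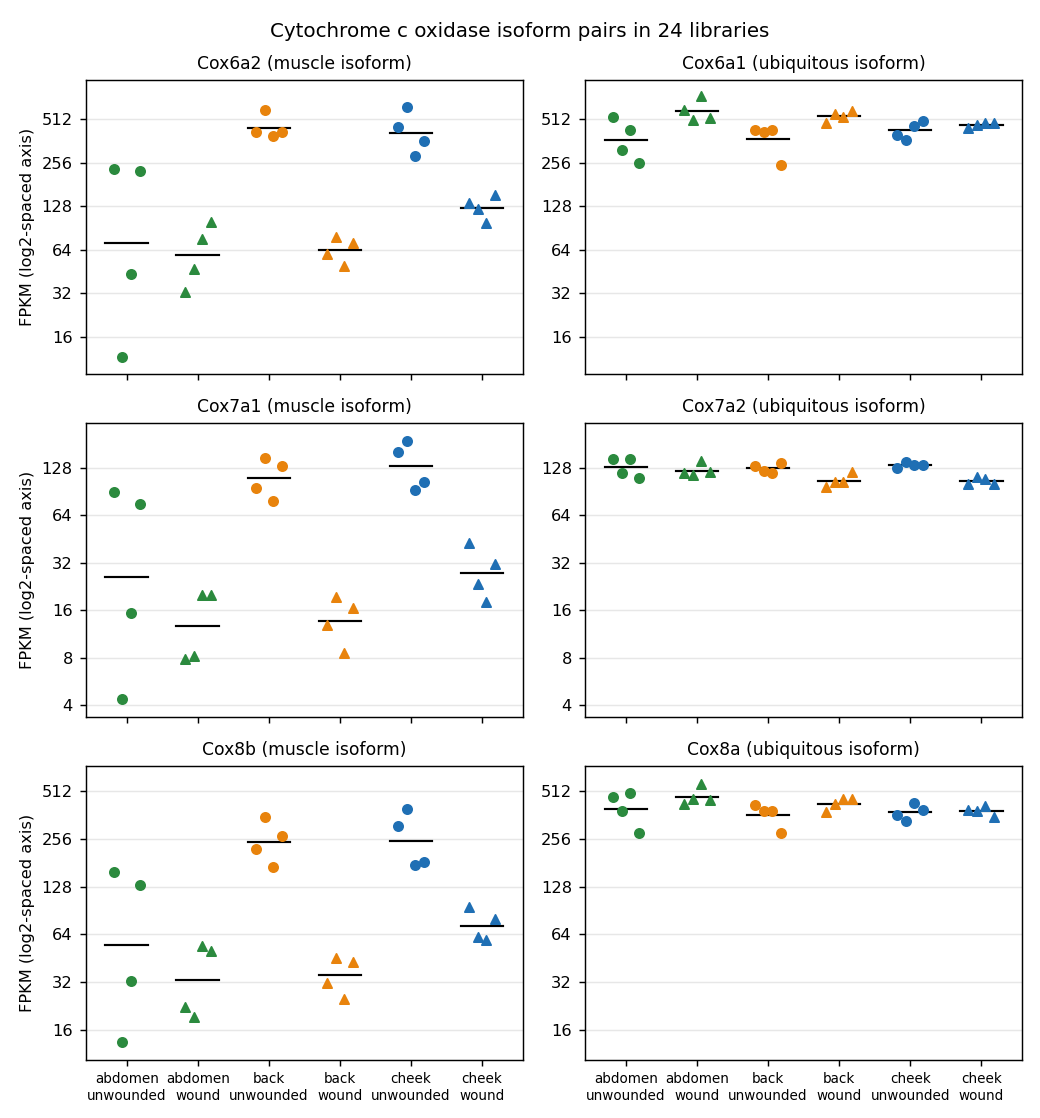
FPKM of the 3 muscle isoforms of complex IV (left panels) and their ubiquitous partners (right panels) in each of the 24 libraries, on an axis spaced in log2. Circles are unwounded skin, triangles are day 3 wounds, colours are sites and the bar is the geometric mean of 4 libraries; Cox6a2 spans 11.54 to 618.88 FPKM in unwounded skin whereas Cox6a1 stays between 248.27 and 530.40.

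Of the remaining 80 subunits, without Cox6a2, Cox7a1 and Cox8b, none passed the test of the slope, although most slopes were positive. For all 83 genes the median slope on the muscle score in unwounded skin was 0.088, with 76 positive and 7 negative slopes, against a median of -0.02 over all 13956 genes tested. All 35 complex I genes had positive slopes. The slopes that passed the test were those of the 3 muscle isoforms, all positive, a share near the 3.07% of all genes tested, and 36 of 83 had an unadjusted p under 0.05, against 9.19% of all genes. The muscle score had an SD of 2.24 in unwounded abdomen, 0.31 in back and 0.44 in cheek. With abdomen mice 2 and 3 left out, chosen after seeing the data, the median slope was 0.28, against -0.07 over all genes. In that fit 4 slopes were called, all positive, against 1.49% of all genes. Per gene, the correlation with the muscle score had a median of 0.687 over the 83 genes and was positive in 94% of them, against a median of -0.162 and 34.9% positive over all genes. The mean log2 level of the 80 subunits correlated with the score with r = 0.758 and rho = 0.748 over the 12 unwounded libraries (r = 0.563 without the 2 farthest). In the same libraries the mean of all 83 genes had r = -0.706 with the keratinocyte score and r = -0.590 with the fibroblast score (-0.613 and -0.624 without the 2 farthest), and r = 0.826 with the muscle score (0.591). The 2 farthest were chosen by the median of each score in turn, so different libraries were left out. The values without them therefore cannot be compared between scores. The part of each tissue in the result was not tested.

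**Figure D2:**
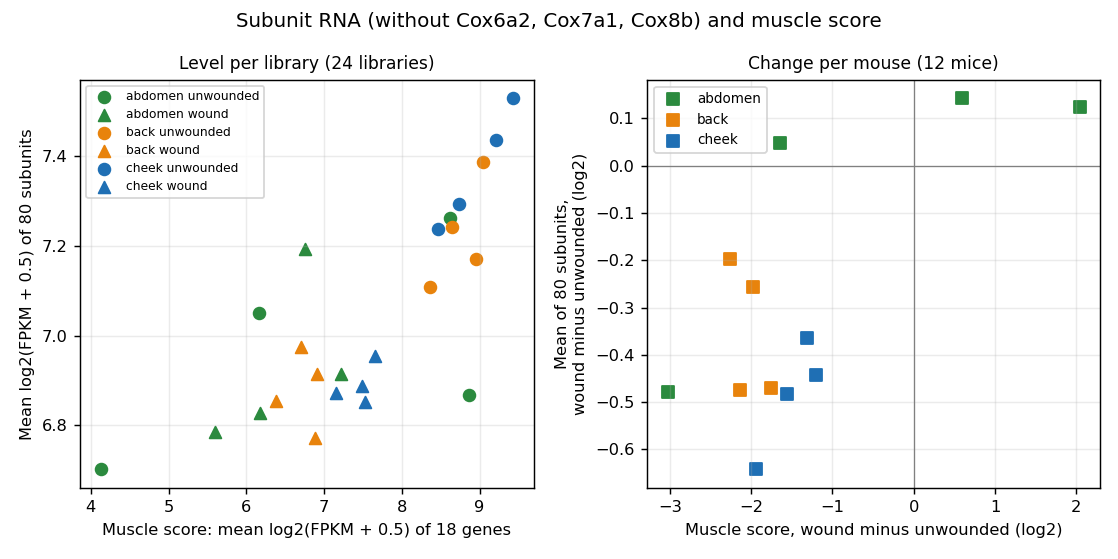
Left, the muscle score of each of the 24 libraries (mean log2(FPKM + 0.5) of 18 contractile genes) against the mean log2(FPKM + 0.5) of 80 subunits, without the 3 muscle isoforms. Right, the change in each of the 12 mice (wound minus unwounded) in the same measures, coloured by site; the 8 back and cheek mice fell in both, and abdomen mice 2 and 3 rose in both.

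The unwounded abdomen of mouse 4 had a muscle score of 8.86, the highest of its site, but a mean log2 level over the 83 genes of 6.87, below mouse 3 (6.97) and mouse 1 (7.26), and above mouse 2 alone (6.58). Within unwounded abdomen mouse 2 was the lowest library for 68 of 83 genes, against 17.6% of all genes, and mouse 1 the highest for 67, against 22.3%. Mouse 4 was lowest for 13 genes (15.7%), below the 31.2% of all genes. The 6 genes Atp5l, Cox6a1, Cox8a, Ndufa4l2, Ndufc2 and Uqcrq were lowest in mouse 4 of both abdomen and back, which are different animals that share only a number. In wound libraries r for the mean of the 80 subunits was 0.240, and the difference from unwounded skin was not tested. Per gene, the median r of the 83 genes was 0.150 with 61.4% positive, near or below the 0.175 and 64.7% of all genes. The median slope was 0.11, against 0.03 over all genes. It ranged from 0.052 without abdomen mouse 3 to 0.25 without abdomen mouse 4, and without the site term it was 0.051, against 0.053 over all genes. Slopes passed the test for Cox6a2 (1.01, SE 0.10, limma adjusted p = 0.00084) and Cox7a1 (1.11, SE 0.22, limma adjusted p = 0.039), against 1.6% of all genes tested, and 13 members had an unadjusted p under 0.05, against 16.3% of all genes. By complex, r over the 12 wounds (4 mice per site) was 0.185 in complex I, 0.890 in complex II, 0.232 in complex III, 0.606 in complex IV and 0.441 in complex V. Without the 2 farthest libraries these were -0.0548, 0.824, 0.121, 0.383 and 0.0487. The complex IV mean includes Cox6a2, Cox7a1 and Cox8b, whose own r over the 12 wounds was 0.972, 0.912 and 0.907. For their partners Cox6a1, Cox7a2 and Cox8a it was -0.522, -0.314 and -0.452.

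Between unwounded sites, the question was whether skin of different origin differs before injury. Subunit levels were higher in cheek than in abdomen, and 18 of 83 (21.7%) passed the test, all higher in cheek, against 2.57% of all genes tested and 1.33% called higher. The median log2 fold change was 0.47 over the 83 genes and 0.03 over all genes, 76 genes were higher and 7 lower, and 58 had an unadjusted p under 0.05, against 19% of all genes. The 4 cheek libraries were all above the 4 abdomen libraries for 31 genes and below for 0, against 6.16% and 4.49% of all genes. Without the muscle isoforms the median of the other 80 was 0.45. The count of calls was 38 with abdomen mouse 1 left out and 0 without abdomen mouse 2, abdomen mouse 3, cheek mouse 1 or cheek mouse 2, with medians of 0.35 to 0.58. Each complex had a positive median, 0.47 in complex I, 0.70 in complex II, 0.60 in complex III, 0.19 in complex IV and 0.49 in complex V. Among the genes called were Atp5a1, Atp5b and Atp5c1 (the core of the ATP synthase motor), Cox5a, Cyc1, Cycs, Ndufa4, Ndufa9, Ndufa10, Ndufc1, Ndufs1, Ndufv1, Sdha, Sdhb, Uqcrc1, Uqcrc2 and Uqcrfs1.

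In complex I, Ndufc1, a small membrane subunit, had the largest called difference. It was at 137.15, 58.04, 80.40 and 72.13 FPKM in abdomen and at 167.76, 182.12, 134.65 and 147.75 FPKM in cheek, so abdomen mouse 1 overlapped the cheek range and the other three did not. Its log2 fold change was 0.93 (SE 0.21, limma adjusted p = 0.042). In complex II, Sdhb, the iron-sulphur subunit, was at 133.86, 80.99, 102.33 and 106.77 FPKM in abdomen, at 154.40, 203.19, 134.60 and 147.34 FPKM in back and at 191.39, 230.19, 151.41 and 185.63 FPKM in cheek. All abdomen libraries lay below all others, and the log2 fold change of cheek over abdomen was 0.84 (SE 0.17, limma adjusted p = 0.029). Sdha, the flavoprotein that oxidises succinate, was at 58.67, 50.55, 53.18 and 64.87 FPKM in abdomen, at 68.91, 87.16, 64.72 and 82.03 FPKM in back and at 106.87, 113.43, 79.19 and 87.73 FPKM in cheek. Abdomen and cheek were separate by a wide margin, with a log2 fold change of 0.76 (SE 0.14, limma adjusted p = 0.017). In complex III, Uqcrc2, a core subunit, was at 110.10, 83.23, 93.52 and 100.11 FPKM in abdomen and at 162.82, 180.69, 132.04 and 147.08 FPKM in cheek. The groups did not overlap and the log2 fold change was 0.68 (SE 0.12, limma adjusted p = 0.016).

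Cyc1, a haem-bearing subunit of complex III, and Cycs, its electron acceptor, were both called higher in cheek than in abdomen. Cycs was at 59.86, 34.06, 39.51 and 45.12 FPKM in abdomen and at 81.98, 96.27, 62.71 and 67.97 FPKM in cheek, without overlap (log2 fold change 0.80, SE 0.18, limma adjusted p = 0.042). Cyc1 had a log2 fold change of 0.78 (SE 0.19, limma adjusted p = 0.046), and abdomen mouse 1, at 156.85 FPKM, reached the lowest cheek library at 156.56 FPKM. The muscle isoforms had larger differences that did not pass the test. The log2 fold change of cheek over abdomen was 2.51 for Cox6a2 (limma adjusted p = 0.14), 2.28 for Cox7a1 (limma adjusted p = 0.17) and 2.17 for Cox8b (limma adjusted p = 0.14).

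In back against abdomen the direction was the same for most genes but none passed the test. Of the 83 genes 75 were higher and 8 lower, with a median log2 fold change of 0.28 against -0.12 over all genes, and 37 had an unadjusted p under 0.05 (22% of all genes did). The share of all genes called by limma was 2.67%, and 0.53% were called higher. For 4 members all back libraries were above all abdomen libraries, against 2.59% of all genes. The largest difference was that of Cox6a2, with a log2 fold change of 2.63 (SE 0.83, limma adjusted p = 0.12). Cheek and back differed least. The median log2 fold change of cheek over back was 0.15, against 0.14 over all genes, and turned to -0.00263 with median-ratio scaling of the libraries. Only Ndufa4l2 passed the test, against 1.05% of all genes and 0.494% called lower, a call that was lost without back mouse 1, 2 or 3 or cheek mouse 2, 3 or 4. All cheek libraries lay above all back libraries for 7 members and below for 3, against 12.4% and 2.2% of all genes, and 14 had an unadjusted p under 0.05 (21.6% of all genes did).

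Ndufa4l2 was the only member called lower in cheek, and 1 of the 3 with all cheek libraries below all back libraries. It encodes a paralogue of NDUFA4 that is induced by hypoxia. Unwounded levels were 306.67, 229.68, 263.43 and 175.40 FPKM in abdomen, 277.06, 303.09, 341.42 and 217.00 FPKM in back and 179.86, 141.31, 129.45 and 91.59 FPKM in cheek. All cheek libraries lay below all back libraries, and the log2 fold change of cheek over back was -1.09 (SE 0.22, limma adjusted p = 0.033). Against abdomen it was -0.86 (SE 0.22, limma adjusted p = 0.057), with cheek mouse 1 overlapping abdomen mouse 4. Ndufa4 itself went the other way, from 492.07, 416.89, 405.76 and 362.05 FPKM in abdomen to 644.00, 715.32, 579.81 and 529.33 FPKM in cheek, without overlap (log2 fold change 0.56, SE 0.13, limma adjusted p = 0.042). Ndufa4l2 therefore made up 36.5% ± 3.04 (SD, n = 4) of the summed FPKM of the pair in abdomen, 37.7% ± 6.12 in back and 17.8% ± 3.02 in cheek.

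**Figure D3:**
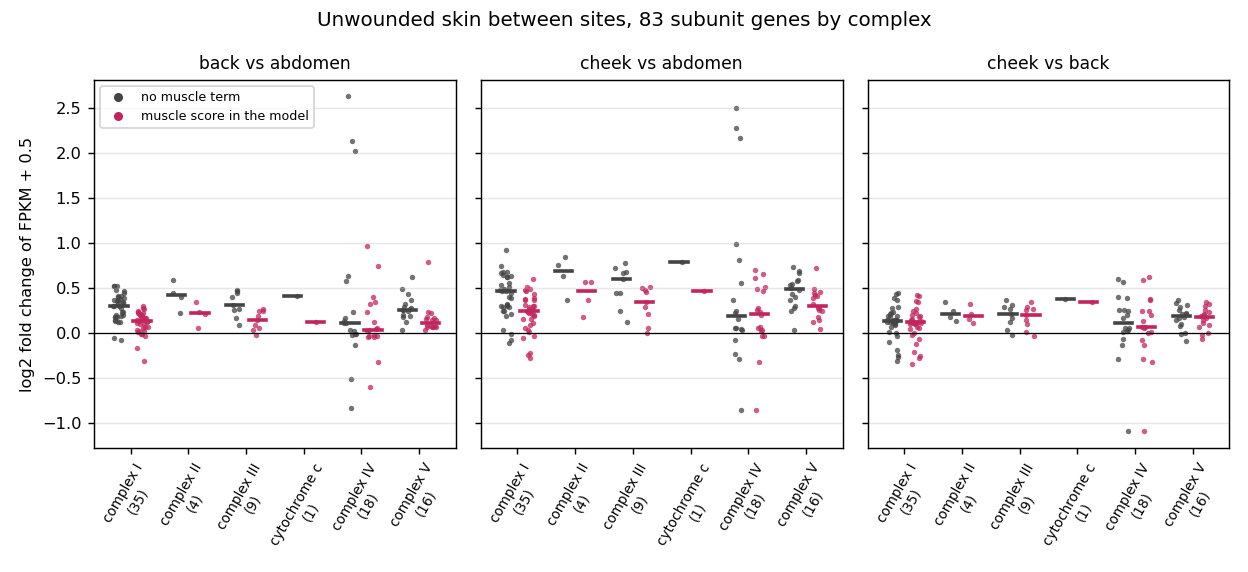
Log2 fold changes between unwounded sites for the 83 genes, grouped by complex, in 3 panels (back over abdomen, cheek over abdomen, cheek over back). Grey points come from the model with site alone and magenta points from the model that also holds the muscle score, bars are medians, and horizontal scatter within a group is only for legibility; the overall median for cheek over abdomen goes from 0.47 to 0.27 with the muscle score.

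Site differences became smaller with the muscle score as a term. The median over the 83 genes was then 0.13 for back over abdomen, 0.27 for cheek over abdomen and 0.13 for cheek over back, and 0 of the 18 cheek calls remained. Over all genes the share called went from 2.57% to 0.451% for cheek over abdomen and from 2.67% to 0.537% for back over abdomen. Cox6a2 became the only call in back over abdomen, with a log2 fold change of 0.97 (SE 0.15, limma adjusted p = 0.013). This is the difference left beside a linear term for the muscle score. Whether it comes from the kind of muscle in the libraries was not tested. When abdomen mice 2 and 3 were left out together, an alternative chosen after seeing the data, cheek over abdomen had a median of 0.34 and 0 calls with 2 abdomen mice remaining, and back over abdomen a median of 0.18 and 0 calls.

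In day 3 wounds the subunits were called lower at back and cheek, and none was called at the abdomen. At the back 76 of 83 genes were lower and 7 higher, with a median log2 fold change of -0.40 against 0.07 over all genes. The test was passed at an adjusted p of 0.001 by 10 genes (12.0%), all lower, against 14.4% of all genes tested and 4.37% called lower. At the cheek 79 genes were lower and 4 higher, the median was -0.53 against 0.01, and 14 genes (16.9%) passed, all lower, against 8.69% of all genes and 2.19% called lower. All 4 wound libraries lay below all 4 unwounded ones for 54 genes at the back (15.4% of all genes) and for 74 at the cheek (15%). An unadjusted p under 0.05 was found for 61 and 75 genes (53.5% and 46.4% of all genes). Lower in 4 of 4 mice were 61 genes at the back (22.6% of all genes) and 77 at the cheek (25.4%). The calls at both sites had 9 genes in common, 9 of 10 at the back and 9 of 14 at the cheek, in different mice fitted in 1 model. They were Cox6c, Cox7b, Ndufa5, Ndufa6, Ndufv1, Ndufv2, Sdha, Uqcrc2 and Uqcrfs1. With 1 mouse left out the count was 0 to 26 at the back and 0 to 37 at the cheek, highest without abdomen mouse 1 and 0 without mouse 1 or 2 of the site itself, while the medians stayed between -0.46 and -0.35 and between -0.57 and -0.46.

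At the abdomen no member passed the test by limma, against 4.96% of all genes, and 15 had an unadjusted p under 0.05 (44.3% of all genes did). There, 31 genes were higher and 52 lower, with a median of -0.07 against -0.01, which turned to 0.08 without abdomen mouse 1. All wounds lay below all unwounded libraries for 2 genes (11% of all genes), and 11 were lower in 4 of 4 mice (25%). The 4 abdomen mice differed from one another. In mouse 1, whose muscle score fell by 3.03, 81 of 83 genes were lower in the wound and the summed FPKM was 73.1% of the unwounded value. In mice 2 and 3, whose muscle scores rose by 2.04 and 0.59, 19 and 24 genes were lower and the sums were 113% and 116% of the unwounded value. In mouse 4 the score fell by 1.64, within the range of the back and cheek mice, while 42 genes were lower and 41 higher and the sum was 105%. At back and cheek every mouse had 63 to 82 genes lower, with sums at 62.3% to 88.2% of the unwounded value and muscle scores that fell by 1.21 to 2.26.

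In complex I all 35 genes had negative estimates at both back and cheek, with medians of -0.43 and -0.55. Ndufa6, an accessory subunit of the matrix arm, had the lowest mean over the 3 wounds. It was at 168.68, 177.40, 164.28 and 160.38 FPKM in unwounded back and at 86.07, 96.22, 94.05 and 107.48 FPKM in back wounds, and went from 170.43, 177.68, 132.10 and 118.14 to 92.13, 90.01, 76.67 and 74.73 FPKM at the cheek. No wound library reached an unwounded one at either site. The log2 fold changes were -0.81 at the back (SE 0.14, limma adjusted p = 0.00051) and -0.82 at the cheek (SE 0.14, limma adjusted p = 0.00063), and -0.29 at the abdomen (limma adjusted p = 0.12). Ndufs7, which carries an iron-sulphur cluster near the ubiquinone site, went from 128.40, 168.41, 114.58 and 115.21 to 65.47, 74.40, 76.01 and 79.42 FPKM at the back, without overlap (log2 fold change -0.82, SE 0.15, limma adjusted p = 0.00073). Ndufa5, another accessory subunit, fell by 0.81 on the log2 scale at the cheek (SE 0.13, limma adjusted p = 0.00059) and by 0.72 at the back (limma adjusted p = 0.00089). Ndufc2, a membrane subunit, was the highest of the complex over the 3 wounds, with 0.37 at the abdomen (limma adjusted p = 0.046, above the wound threshold) and -0.38 at the cheek.

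In complex II, Sdha was called at both sites and the other 3 genes at neither. Sdha went from 68.91, 87.16, 64.72 and 82.03 to 50.10, 48.38, 49.60 and 51.08 FPKM at the back and from 106.87, 113.43, 79.19 and 87.73 to 69.77, 57.61, 57.91 and 56.00 FPKM at the cheek. The wounds were tightly grouped and all below unwounded skin, with log2 fold changes of -0.59 (SE 0.10, limma adjusted p = 0.00049) and -0.67 (SE 0.10, limma adjusted p = 0.00029). At the abdomen Sdha was at 43.58, 47.99, 44.76 and 48.40 FPKM in wounds, below each unwounded library there (50.55 to 64.87), and the log2 fold change of -0.29 did not pass (SE 0.10, limma adjusted p = 0.04). Sdhd, one of the membrane anchors, had log2 fold changes of -0.02, -0.15 and -0.17 at abdomen, back and cheek, and none passed. In complex III all 9 genes had negative estimates at back and cheek. Uqcrc2 went from 121.66, 130.69, 104.32 and 123.49 to 91.29, 85.20, 79.94 and 79.61 FPKM at the back and from 162.82, 180.69, 132.04 and 147.08 to 111.00, 103.61, 103.69 and 94.95 FPKM at the cheek. The log2 fold changes were -0.51 (SE 0.09, limma adjusted p = 0.00067) and -0.58 (SE 0.09, limma adjusted p = 0.00039). Uqcrq, a small subunit, had 0.19, -0.39 and -0.40 at the 3 sites, none past the threshold. Cycs had -0.19, -0.61 and -0.72, and the latter 2 missed the threshold of 0.001 with limma adjusted p values of 0.0031 and 0.0014.

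Complex IV had medians nearest to 0, -0.29 at the back and -0.34 at the cheek, and its genes spread widest. The muscle isoforms had the lowest estimates of the 83 genes at both sites. None passed, but at the back Cox8b passed in 10 of 22 alternative settings and Cox6a2 and Cox7a1 in 4 of 22 each. Cox6a2 was at 60.30, 77.93, 49.39 and 71.20 FPKM in back wounds and at 134.38, 122.65, 97.36 and 152.84 FPKM in cheek wounds, below all unwounded libraries of these sites. At the abdomen its wounds were at 32.83, 46.74, 76.53 and 100.05 FPKM, so that mice 2 and 3 were higher after wounding and mice 1 and 4 lower. The log2 fold changes were -2.81 at the back (SE 0.58, limma adjusted p = 0.003), -1.71 at the cheek (limma adjusted p = 0.041) and -0.29 at the abdomen (limma adjusted p = 0.73), none past 0.001. For Cox7a1 they were -2.95 (limma adjusted p = 0.0017), -2.23 (limma adjusted p = 0.011) and -1.03 (limma adjusted p = 0.18), and for Cox8b -2.77 (limma adjusted p = 0.0010, just above the threshold), -1.78 (limma adjusted p = 0.015) and -0.74 (limma adjusted p = 0.26). The wound share of the muscle isoform was 9.78% ± 4.59, 10.7% ± 1.59 and 21.2% ± 3.29 (SD, n = 4 each) for Cox6a2 at abdomen, back and cheek.

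The ubiquitous isoforms had estimates far nearer to 0, and some above it. Cox6a1 was at 595.03, 509.39, 739.87 and 520.17 FPKM in abdomen wounds and at 485.95, 553.17, 530.01 and 587.16 FPKM in back wounds, higher than the unwounded library of the same mouse in all 8 of these mice. The log2 fold changes were 0.67 at the abdomen (SE 0.16, limma adjusted p = 0.0088), 0.53 at the back (limma adjusted p = 0.02) and 0.13 at the cheek (limma adjusted p = 0.56), and none passed 0.001. Cox8a had 0.25, 0.24 and 0.02, and Cox7a2 had -0.07, -0.27 and -0.33. The log2 ratio of Cox6a2 to Cox6a1, which does not depend on the scaling of a library, differed between wound and unwounded skin by -3.33 at the back and by -1.85 at the cheek, lower in 4 of 4 mice at each, and by -0.96 at the abdomen, lower in 2 of 4. For Cox7a1 to Cox7a2 and Cox8b to Cox8a the differences were -2.68 and -3.01 at the back and -1.89 and -1.80 at the cheek. An exact test of sign changes over 4 mice cannot go below p = 0.125, so none of the ratios could pass. Between unwounded sites 4 of 18 ratios reached the smallest p of the exact permutation test, 0.029, and none passed adjustment over the 18 (adjusted p = 0.129). Those were Cox6a2 to Cox6a1 in back over abdomen, Cox7a1 to Cox7a2 in cheek over abdomen, and Ndufa4l2 to Ndufa4 in cheek over each of the other sites.

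Other isoform pairs of complex IV were compared in the same way. The ratio of Ndufa4l2 to Ndufa4 was higher in wounds in 4 of 4 mice at each site, by 0.36, 0.52 and 0.57 on the log2 scale at abdomen, back and cheek. Ndufa4 had log2 fold changes of -0.45 at the back (limma adjusted p = 0.0047) and -0.53 at the cheek (limma adjusted p = 0.0022), short of the threshold, whereas Ndufa4l2 had log2 fold changes of 0.22, 0.07 and 0.04. The share of Ndufa4l2 in the pair was 42.3%, 46.3% and 24.2% in abdomen, back and cheek wounds, so the lower cheek share of unwounded skin was present in wounds too. The ratio of Cox4i2 to Cox4i1, the main COX4 gene, was also higher in 4 of 4 mice at each site, by 0.50, 0.87 and 0.49, from shares near 1% (1.12%, 0.714% and 1.13% unwounded). Cox6b2 had -0.84 at the abdomen (SE 0.26, limma adjusted p = 0.028) at levels of at most 7.93 FPKM. Cox6c and Cox7b, small subunits without such muscle forms, were called at both back (-0.66 and -0.46) and cheek (-0.73 and -0.58).

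In complex V the medians were -0.02, -0.30 and -0.43 at abdomen, back and cheek. All 16 genes had negative estimates at the cheek, and only Atp5c1, the rotating gamma subunit, passed (log2 fold change -0.62, SE 0.10, limma adjusted p = 0.00059). Atp5s had the lowest mean over the 3 wounds, with -0.31, -0.59 and -0.60, and Atp5g2, one of the genes for the membrane ring, the highest, with 0.23, -0.02 and -0.18.

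**Figure D4:**
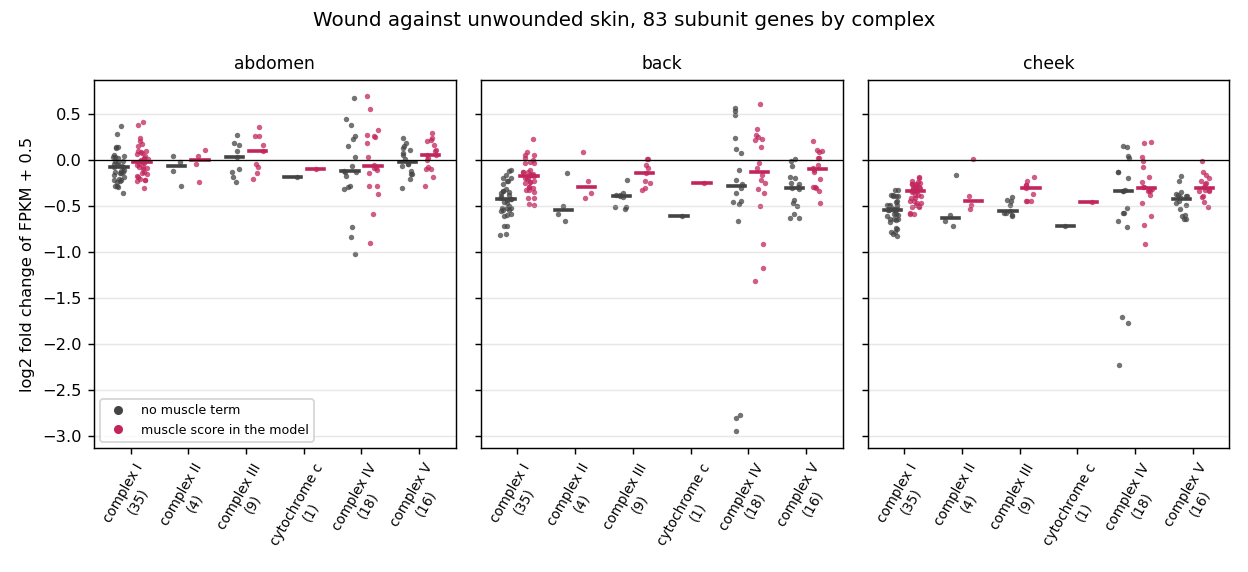
Log2 fold changes of day 3 wound over unwounded skin of the same mouse for the 83 genes, grouped by complex, in 3 panels (abdomen, back, cheek). Grey points come from the model with a term for each mouse and magenta points from the model that also holds the muscle score, with bars at the medians; the median goes from -0.40 to -0.17 at the back and from -0.53 to -0.33 at the cheek.

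Whether the response differed between sites was tested directly, with limma's moderated F test over the pairs of wound effects. No member passed at an adjusted p of 0.05, where 0.0208% of all genes did, and 51 of 83 had an unadjusted p under 0.05, against 12.9% of all genes. Without abdomen mouse 1, 33 members passed, and 2.19% of all genes did. The smallest p values were those of Cyc1 (log2 fold changes 0.09, -0.54 and -0.58 at abdomen, back and cheek), Ndufb2 (0.05, -0.72 and -0.78) and Ndufc2, each with a limma adjusted p of 0.23. Ndufb2 is an accessory subunit of complex I. For these genes the abdomen estimate was the highest of the 3. With the muscle score as a term, the median wound effect was near 0 at the abdomen with 42 of 83 genes negative, -0.17 at the back with 62 negative and -0.33 at the cheek with 79 negative, and no member passed the test at any site. Over all genes the share called was then 4.6% at the abdomen, 2.07% at the back and 2.64% at the cheek, against 4.96%, 14.4% and 8.69% without the score. The contractile genes themselves had median wound effects of -0.55, -2.20 and -1.55 at the 3 sites, and 0 of 18 passed the test at each. The fit used 1 estimate of spread per gene for all 3 sites. The muscle score changed by -3.03, 2.04, 0.59 and -1.64 in abdomen mice 1 to 4. At back and cheek it fell in every mouse, by 1.21 to 2.26. Across the 12 mice, 4 per site, the change in the mean of the 80 subunits had r = 0.702 and rho = 0.462 with the change in muscle score, and r = 0.107 without the 2 mice farthest from the median change.

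Markers of other cells moved with the wounds too. Neutrophil genes rose, with median log2 fold changes of 2.33, 2.95 and 3.38 at abdomen, back and cheek and 5 of 6 called at each site, and macrophage genes had medians of 1.06, 1.46 and 1.41, with 3, 5 and 5 of 6 called higher. Adipocyte genes had medians of -1.38, -1.72 and -0.83, and 4 of 6 were called lower at the back. Regenerating muscle genes, such as the embryonic myosin Myh3, had medians of 3.38, 2.93 and 2.69, with 4, 5 and 2 of 7 called higher. Of 6 keratinocyte genes 2 were called higher at each site and 1 lower at the abdomen (medians 0.25, 0.17 and 0.46). Of 6 fibroblast genes 1 was called, lower at the back (medians -0.69, -0.73 and -0.62). Over all genes 4.96%, 14.4% and 8.69% were called in either direction in abdomen, back and cheek wounds, and 4.37% and 2.19% lower at back and cheek. The part of each of these cell types in the subunit levels was not tested.

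Genes that work beside the subunits were taken as lists. Of 13 citric acid cycle genes, which supply the electrons, 7 were called higher in cheek than in abdomen (median 0.55), 6 lower in back wounds (median -0.48) and 7 lower in cheek wounds (median -0.56), read against the background shares given above. Idh3a, the catalytic subunit of NAD-dependent isocitrate dehydrogenase, had a log2 fold change of 1.16 in cheek over abdomen (SE 0.24, limma adjusted p = 0.032), -1.16 in back wounds (SE 0.16, limma adjusted p = 0.00012) and -0.96 in cheek wounds (limma adjusted p = 0.00073). It was also called for a positive slope on the muscle score, 0.26. Of 46 assembly factors, which build the complexes without being part of them, 4 of 45 tested were called higher in cheek than in abdomen and 3 were called lower in back and 3 in cheek wounds, with medians of 0.17, -0.11 and -0.29. Over all genes 1.33% were called higher in cheek than in abdomen, and 4.37% and 2.19% lower in back and cheek wounds. Ecsit, a complex I assembly factor, fell by 0.66 at the back (SE 0.09, limma adjusted p = 0.00012) and by 0.70 at the cheek (limma adjusted p = 0.00011).

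Among 12 regulators of mitochondrial gene expression, Perm1, a muscle factor acting with PGC-1 and ERR, fell by 1.67 in back wounds (SE 0.16, limma adjusted p = 8.4e-06) and by 1.08 in cheek wounds. Ppargc1a, which encodes PGC-1alpha, fell by 0.91 and 0.92, from low levels that did not exceed 1.59 FPKM in any library. Esrrg, an oestrogen-related receptor, was higher in cheek than in abdomen by 1.23 (limma adjusted p = 0.024). Its levels were near the floor, at 0.07 to 0.37 FPKM in unwounded abdomen and 0.58 to 2.00 FPKM in cheek. Among unwounded libraries it reached the filter of 0.5 FPKM in cheek alone. Pprc1, a relative of PGC-1alpha, was called higher in back wounds by 0.60 (SE 0.10, limma adjusted p = 0.00045), so of the 11 regulators tested 1 was higher and 2 were lower there, and 3 were lower at the cheek. Over all genes 4.37% and 2.19% were called lower in back and cheek wounds. Of 8 carriers and related proteins, 1 was called higher and 2 lower in back wounds, against 14.4% of all genes called and 4.37% called lower. There were 0 calls in abdomen and cheek wounds, against 4.96% and 8.69% of all genes. In those 2 and 5 had an unadjusted p under 0.05, against 44.3% and 46.4% of all genes. Ckmt1, the ubiquitous mitochondrial creatine kinase, was higher in back wounds by 0.77 (SE 0.11, limma adjusted p = 0.00013), and Slc25a5, the form of the ADP/ATP carrier found in most tissues, had 0.55 (limma adjusted p = 0.0077), short of the threshold. Slc25a4, the muscle form of the ADP/ATP carrier, fell by 1.83 in back wounds (SE 0.28, limma adjusted p = 0.00038), and Ckmt2, the muscle mitochondrial creatine kinase, had a slope on the muscle score of 0.87 in unwounded skin and 1.13 in wounds, both called. Of the 13 subunits encoded by mitochondrial DNA, 0 were found in the expression table under the symbols searched, so they were not analysed.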

How the data were processed

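RNA sequencing of whole skin gave 24 libraries from 12 mice, grouped by site, state and mouse number as the labels give them. FPKM values were made by the authors' sequencing provider per library and deposited without scaling between libraries. The submitters' processing notes name HISAT2, Bowtie2 2.2.5 and RSEM 1.2.12, with reads placed on GRCm38 (mm10). The authors also deposited a table of their own comparisons (log2 fold changes and adjusted p-values), which was not used. No read counts are held by FPKM, so depth is unknown and no count model was fitted.

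The test was limma 3.58.1 (statmod 1.5.0, R 4.3.3), with a trended and robust prior, on log2(FPKM + 0.5) of every gene that reached 0.5 FPKM in 4 or more libraries entering the fit. Fold changes on this scale understate those of low genes. Sites were compared in the 12 unwounded libraries (adjusted p threshold 0.05), and wounds in 24 libraries with a term for each mouse (threshold 0.001), with Benjamini-Hochberg adjustment over all genes tested. Slopes on the muscle score were fitted with a site term (threshold 0.05). Isoform ratios were tested by two-sided exact permutation or sign changes, adjusted over 18 comparisons each. The pairing of wound and unwounded skin comes from the labels, and the deviations of the 2 libraries of a mouse correlated on average with r = 0.322, 0.348 and 0.281 at abdomen, back and cheek, with a lowest value of -0.030. The fits were also run on simulated data with independent noise for each simulated gene and no mouse effect, unlike these paired libraries. In the site comparisons, limma p-values measure the spread between mice of the same site. In the wound comparisons, which hold a term for each mouse, they measure how far the wound changes differ between mice. Each of these fits pooled the spread of a gene over the sites.

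Genes named in the text were the isoform pairs, the members with the highest and lowest mean wound effect in each complex, the 2 with the largest rise and fall past each threshold, the 3 with the lowest F test p, the 2 with the highest and lowest slopes, and at most 2 genes per comparison of each other list. Cox6c, Cox7b, Cox7c, Atp5b, Atp5c1, Sdhb, Uqcrc2 and genes listed only as called, by their promoter motif or as lowest in a library were named outside this rule, after their values were seen. The members and gene lists were chosen with earlier results of these data known. Alternatives varied the pseudocount (0.1 and 1), the filter (none and 1 FPKM), scaling (median ratio and quantile), the muscle score as covariate, the mouse term, separate fits per site, the site term of the slopes, and each mouse left out in turn. Leaving out abdomen mice 2 and 3 together was added after seeing the data. Promoter windows came from RefSeq on GRCm38.p6, and gene positions also came from RefSeq. Some genes that met these rules are not reported here.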

Additional observations from a re-analysis of the deposited data

Results flagged for a closer look

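Of 174 groups of 4 libraries of named subunits, 9 (5.17%) had 1 library far from the other three, and chance alone flags about 1 in 20 groups. Among unwounded libraries, Cox6a2 was highest in back mouse 2 (596.53 FPKM, next 417.62), Cox6a1 lowest in back mouse 4 (248.27 FPKM, next 420.54) and Cox4i1 highest in cheek mouse 2 (528.91 FPKM, next 464.4). Back mouse 2 also had the highest muscle score of its site. Among wounds, Sdha and Sdhb were both highest in cheek mouse 1 (69.77 FPKM, next 57.91, and 123.39 FPKM, next 110.8), the cheek wound with the highest muscle score (7.65). Sdhd was lowest in cheek mouse 4 (57.28 FPKM, next 63.51), Cox4i2 highest in back mouse 2 (5.85 FPKM, next 5.13), Ndufa4l2 lowest in back mouse 1 (253.28 FPKM, next 309.05) and Ndufb2 highest in abdomen mouse 3 (43.06 FPKM, next 32.72). Abdomen mouse 3 was the highest abdomen wound for 77 of 83 subunits, against 26.4% of all genes.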

How the results depend on the processing

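The number of subunits called was sensitive to the processing. The median of abdomen wounds ranged from -0.14 to 0.08 with 1 mouse left out, positive without abdomen mouse 1. For cheek over abdomen (18 calls) there were 8 under median-ratio scaling, and 0 with the muscle score as a covariate or with abdomen mice 2 and 3 left out. For cheek over back (1) the call was lost without a filter (0) and with those mice left out (0), and back over abdomen (0) had 1 with the muscle score. Wounds at the back (10) had 6 without a filter, 31 under quantile normalization and 0 with the muscle score. Wounds at the cheek (14) had 0 with the muscle score and 0 when each site was fitted alone, and abdomen wounds (0) had 1 with abdomen mice 2 and 3 left out, which are the mice whose unwounded levels of that gene, Cox7a1, were lowest (3.11% of all genes were called in that fit). Slopes on the muscle score gave 32 calls without a site term in unwounded skin (3), and in wounds (2) gave 4 without a site term and 1 without a filter or under quantile normalization. With 1 mouse left out, calls ranged from 0 to 10 for back over abdomen, 0 to 38 for cheek over abdomen, 0 to 1 for cheek over back, 0 to 26 for back wounds, 0 to 37 for cheek wounds, 0 to 33 for the difference between wound effects, 3 to 22 for unwounded slopes and 1 to 2 for wound slopes, and stayed at 0 for abdomen wounds. The counts of 10, 38, 26, 37 and 33 came without abdomen mouse 1, and the 22 slopes without abdomen mouse 4. Back wounds had 0 calls without back mouse 1 or 2, 1 without back mouse 3 or 4, 3 without abdomen mouse 4 or cheek mouse 1, and 5 and 6 without abdomen mouse 3 and cheek mouse 3. Cheek wounds had 0 without cheek mouse 1 or 2, 5 and 3 without cheek mouse 3 and 4, and 9 without back mouse 1 or 2. Isoform ratios at the smallest p (4) ranged from 3 to 8 with 1 mouse left out, 8 without abdomen mouse 4. Mouse numbers do not pair the sites (mean r of -0.025 to -0.030), and with the number as a replicate block the site comparisons had 0, 13 and 1 calls. Without the mouse term, the pairing of wound and control, the wounds had 0, 13 and 18. Median-ratio scaling moved the median of all genes from -0.12 to -0.00273 for back over abdomen, and that of the subunits from 0.28 to 0.40, and for cheek over back the subunit median from 0.15 to -0.00263. The other median log2 fold changes of the subunits kept their sign under both scalings. Cox6a2 reversed in abdomen wounds with the muscle score (0.18) and without abdomen mouse 1 (0.54, range with 1 mouse left out -1.05 to 0.54), Cox7a2 there without abdomen mouse 1 (0.00501, range -0.14 to 0.00501), and Cox8a in cheek wounds under median-ratio scaling (-0.00295) and without cheek mouse 1 (-0.00350) or 2 (-0.039, range -0.039 to 0.081). The cause of these differences was not tested. Depth could not be weighed.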
